A study of Mus musculus with 9 samples.

Results

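The basement membrane genes Col4a1, Col4a2, Lamb1, Lamc1, Nid1, Nid2, Agrn, Hspg2, Col15a1 and Col18a1 were taken by name from the normalised counts of sorted mammary fibroblasts. All 10 were among the 11931 genes measured, and all 10 were among the 10639 that passed the filter on low values. Normal mammary fibroblasts came from the fat pads of female BALB/c mice aged 12 weeks and recovered on a collagen layer for 1 week. In 3 libraries they had been grown with GFP-expressing 4T1 cells, a mouse mammary carcinoma line, for 5 days, in 3 with 4T1 cells for 3 days, and in 3 alone for 5 days. Every group was sorted for cells without GFP and with podoplanin, and 3′ end mRNA was sequenced, so a count reflects transcripts and not their length. The labels do not say whether replicates were separate cultures or animals, so p-values measure only the spread between these samples, which may be technical. No fibroblasts grown alone for 3 days were measured, so the 3-day comparison differs in days as well as in co-culture.

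Basement membranes are thin sheets of matrix that underlie epithelia and wrap fat cells, muscle and vessels. A laminin polymer attached to cell receptors and a crosslinked collagen IV network are joined by nidogens and by heparan sulfate proteoglycans, chiefly perlecan and agrin, while collagens XV and XVIII tie the sheet to the fibrous stroma. In the mammary gland fibroblasts contribute collagen IV, nidogen and laminin chains to the sheet around the ducts, and the epithelium adds laminins of its own.

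Of the 10 genes, Agrn and Col15a1 rose in co-culture at both times, Nid2 fell at both times and was lower at 5 than at 3 days, and Nid1 fell at 5 days. The collagen IV chains, the laminin chains, perlecan and collagen XVIII passed the test in no comparison. Called genes, at a limma adjusted p under 0.05, numbered 4 of the 10 at 5 days against monoculture, beside 24.0% of all genes tested. Of these 4, 2 were higher (12.6% of all genes) and 2 lower (11.4%). At 3 days against monoculture 3 of the 10 were called, beside 20.0% of all genes, with 2 higher (10.6%) and 1 lower (9.37%). At 5 against 3 days of co-culture 1 of the 10 was called, beside 6.91%, with 0 higher (3.20%) and 1 lower (3.71%). On whole reads recovered from the values, edgeR and DESeq2 each called 4 of the 10 at 5 days against monoculture (25.7% and 24.0% of all genes) and 3 of the 10 at 3 days (21.0% and 19.3%). At 5 against 3 days of co-culture each called 1 of the 10 (6.36% and 7.01%). Both co-culture comparisons share the monoculture libraries.

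The libraries held between 1048471 and 3567326 recovered reads, with means of 1806567 after 5 days of co-culture, 1632228 after 3 days and 2966627 in monoculture. All 10 listed fibroblast markers were present, and their summed level was 38936 to 53343 after 5 days of co-culture, 43599 to 54892 after 3 days and 43955 to 61303 in monoculture. Most of that sum is Col1a1 and Col1a2, which were not called. Of the 10, 1 rose (Vim) and 5 fell (Pdgfra, Pdgfrb, Thy1, Col3a1 and Dcn) at 5 days against monoculture by limma, and 0 rose and 4 fell at 3 days (the same but for Dcn). At 5 against 3 days of co-culture Vim was higher and Pdgfra, Thy1 and Dcn were lower. The shares to set beside these and the following marker calls are those of all genes tested. At 5 days against monoculture 12.6% were higher and 11.4% lower, and at 3 days 10.6% and 9.37%. At 5 against 3 days of co-culture 3.20% were higher and 3.71% lower. Pdgfra, a receptor that marks fibroblasts, had 18 to 22.5 units after 5 days, 46.5 to 61.2 after 3 days and 126.9 to 234.6 in monoculture. Luminal epithelial and carcinoma markers moved with the groups: the 14 of 16 measured summed to 1098 to 1523 after 5 days of co-culture, 1113 to 1273 after 3 days and 53.7 to 82.1 in monoculture. Of the 13 tested, 12 rose in each co-culture comparison, and their defining markers Epcam and Cdh1 had at most 0.6 units in any monoculture library. Of the 12, only Krt18 and Krt19 reached 5 units in every monoculture library, with 13.6 to 48.8 and 10.9 to 21.7. The others could pass the filter on low values only with co-culture libraries. Those below 5 units in every monoculture library, Epcam and Cdh1 among them, therefore had to differ. Of 12 endothelial markers 3 were measured (Kdr, Esam and Egfl7), summing to 37.2 to 38.7 after 5 days of co-culture, 50.7 to 64.7 after 3 days and 25.5 to 30.9 in monoculture. Of 11 pericyte and smooth muscle markers 9 were measured, summing to 2287 to 2980 after 5 days of co-culture, 4256 to 8944 after 3 days and 2820 to 4287 in monoculture. Most of that sum is Tagln. Of the 8 tested, Cspg4 (log2 3.38 and 2.91) and Cnn1 rose in both co-culture comparisons by limma, and Des rose at 3 days. Tagln fell at 5 days against monoculture and was lower at 5 than at 3 days. The Des call was lost in 6 of the 9 fits that left out 1 library (limma adjusted p up to 0.19). The 5-day Tagln call was lost without 5-day co-culture replicate 1 or 2 or monoculture replicate 1 or 3 (limma adjusted p up to 0.096). Adipocyte markers Fabp4 and Pparg, 2 of 7 measured, summed to 13.5 to 18.7 after 5 days of co-culture, 10.0 to 25.1 after 3 days and 102.8 to 157.2 in monoculture, and both fell at both times. Pparg had at most 4.5 units after 5 days and 5 after 3 days, so it could pass the filter only with the monocultures. Its 5-day call was lost without monoculture replicate 3 (limma adjusted p = 0.062). The 3-day call was lost without 3-day co-culture replicate 2 or monoculture replicate 2 or 3 (limma adjusted p up to 0.095). Of 6 basal epithelial markers 3 were measured, summing to 39.6 to 49.9 after 5 days, 44.6 to 66.4 after 3 days and 2.5 to 11 in monoculture. Of 9 immune markers 4 were measured, summing to 54.9 to 136.0 after 5 days, 109.6 to 310.5 after 3 days and 70.1 to 240.4 in monoculture. No measured marker of these lists was at 0 in every library. In such bulk samples fewer cells of a type and less RNA per cell cannot be told apart, and the part of these markers in the results that follow was not tested.

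**Figure D1:**
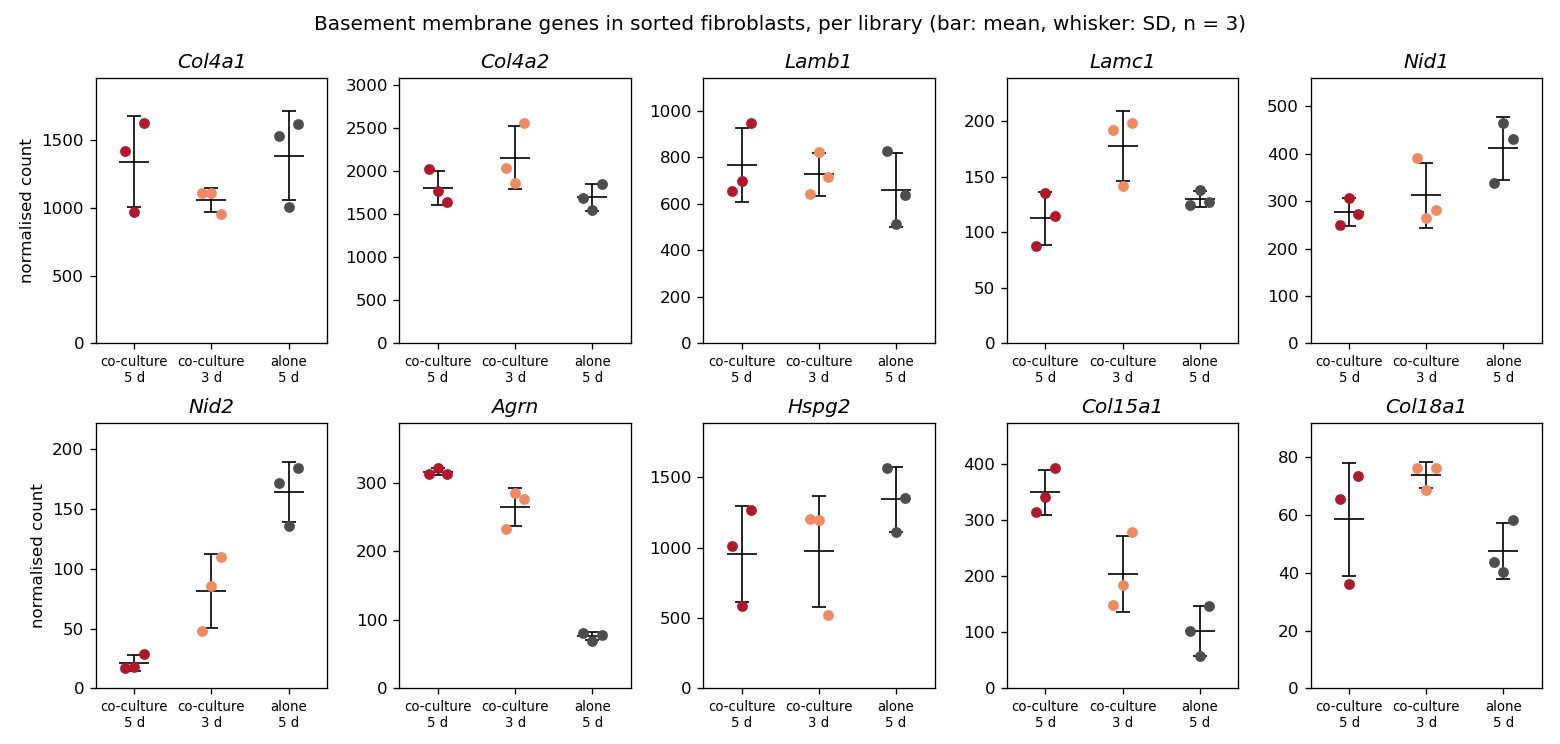
Normalised counts of the 10 basement membrane genes in each library, with linear axes from 0; points are libraries, bars the mean and whiskers the SD (n = 3). Agrn lies between 232.5 and 322.3 in all 6 co-culture libraries and at or below 81.1 in the monocultures, and Nid2 lies between 17.1 and 28.7 after 5 days of co-culture.

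Promoter sequences from RefSeq (GRCm38.p6, the assembly that mm10 names) were found for 8 of the 10 genes, in 10 windows. Each runs from 250 bases before the start annotated in RefSeq to 50 after it. The first pair is shown because Col4a1 and Col4a2 lie head to head on chromosome 8, and in GENCODE M21 their 5′ ends share 22 bases. Capitals mark the 78 bases, chr8:11312777-11312854, that lie in both windows, so the stretch in capitals in one is the reverse complement of that in the other.
Col4a1, chr8:11312777-11313076, minus strand: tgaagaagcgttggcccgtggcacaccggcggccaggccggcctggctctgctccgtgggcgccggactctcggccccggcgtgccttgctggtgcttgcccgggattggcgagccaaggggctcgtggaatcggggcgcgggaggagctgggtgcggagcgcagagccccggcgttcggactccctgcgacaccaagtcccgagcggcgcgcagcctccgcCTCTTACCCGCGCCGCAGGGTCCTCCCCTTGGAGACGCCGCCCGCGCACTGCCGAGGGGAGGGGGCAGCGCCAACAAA
Col4a2, chr8:11312555-11312854, plus strand: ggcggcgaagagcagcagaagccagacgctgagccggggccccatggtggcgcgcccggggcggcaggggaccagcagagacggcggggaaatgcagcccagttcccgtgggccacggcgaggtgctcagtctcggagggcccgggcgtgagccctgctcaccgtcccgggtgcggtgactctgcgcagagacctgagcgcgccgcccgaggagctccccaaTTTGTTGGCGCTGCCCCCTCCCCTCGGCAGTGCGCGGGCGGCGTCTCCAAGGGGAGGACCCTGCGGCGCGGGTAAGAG
The next pair belongs to the genes that rose, with capitals for GGGCGG and CCAAT on either strand.
Agrn, chr4:156197439-156197738, minus strand: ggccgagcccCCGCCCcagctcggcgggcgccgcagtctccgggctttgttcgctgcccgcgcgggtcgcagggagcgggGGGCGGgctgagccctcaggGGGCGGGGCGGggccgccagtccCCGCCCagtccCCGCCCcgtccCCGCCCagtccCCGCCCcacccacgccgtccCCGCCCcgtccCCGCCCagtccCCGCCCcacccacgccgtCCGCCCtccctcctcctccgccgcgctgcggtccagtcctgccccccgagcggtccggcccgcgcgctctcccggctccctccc
Col15a1, chr4:47207762-47208061, plus strand: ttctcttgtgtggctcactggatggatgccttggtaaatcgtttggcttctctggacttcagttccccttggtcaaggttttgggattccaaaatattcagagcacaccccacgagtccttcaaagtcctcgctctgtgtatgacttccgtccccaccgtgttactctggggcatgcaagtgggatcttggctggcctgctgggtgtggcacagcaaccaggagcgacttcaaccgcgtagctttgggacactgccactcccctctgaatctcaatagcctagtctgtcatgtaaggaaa
These sequences differ widely in composition. The Agrn window shown holds 42 CpG dinucleotides, and 3.03% of the 32851 windows in the RefSeq table hold as many. A second Agrn window, chr4:156186210-156186509, holds 11, as many as 41.4% of windows reach. The Col15a1 window holds 8, as many as 48.6% of windows reach, and the Col4a1 and Col4a2 windows hold 37 and 33. The Col15a1 window ends at 47208061, before the GENCODE M21 start of that gene at 47208161. GGGCGG, the GC box, was found 12 times in the Agrn window shown and 2 times in the second, counting overlapping matches on both strands. It was found 3 times in the Col4a2 window, 1 time in that of Col4a1 and not in that of Col15a1, and 35.7% of all windows hold it. CCAAT was found once each in the Col4a1 and Col4a2 windows and in neither the Agrn nor the Col15a1 window shown, and 37.4% of all windows hold it. TATAAA (in 13.6% of all windows), TGANTCA (7.81%), the AP-1 motif, and TTCNNNGAA (8.30%), the STAT motif, were searched on both strands and matched in none of the 10 windows.

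Collagen IV forms the network that gives a basement membrane its tensile strength, and Col4a1 (chromosome 8, 11198423 to 11312826, minus strand, mm10) and Col4a2 (chromosome 8, 11312805 to 11449287, plus strand) encode the chains of its ubiquitous trimer. Col4a1 had normalised counts of 1425, 972.4 and 1631.7 after 5 days of co-culture, 1110.9, 1110.3 and 955.8 after 3 days, and 1531.2, 1009.4 and 1620.3 in monoculture. The 5-day and monoculture libraries covered the same range, each with 1 library near 1000, and the 3-day libraries overlapped the low end of both. Col4a2 had 2022.5, 1765.0 and 1636.7 after 5 days, 2040.9, 1862.1 and 2564.1 after 3 days, and 1693.9, 1544.4 and 1853.6 in monoculture. Every 3-day library lay above every monoculture library for Col4a2, although by little, while the 5-day and monoculture libraries overlapped. Neither gene passed the test in any comparison. Against monoculture at 5 days, the log2 fold change was -0.05 for Col4a1 (95% interval -0.51 to 0.42, limma adjusted p = 0.90) and 0.09 for Col4a2 (-0.29 to 0.47, adjusted p = 0.77). At 3 days it was -0.36 for Col4a1 (-0.83 to 0.10, limma adjusted p = 0.27) and 0.34 for Col4a2 (-0.04 to 0.71, adjusted p = 0.20).

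The balance of the chains was set out as the log2 ratio of Col4a1 to Col4a2 in each library. This ratio was -0.50, -0.86 and 0.00 after 5 days of co-culture, -0.88, -0.75 and -1.42 after 3 days, and -0.15, -0.61 and -0.19 in monoculture. All 3-day libraries lay below all monoculture libraries, whereas the 5-day libraries overlapped both other groups. The mean was -1.02 ± 0.36 at 3 days and -0.32 ± 0.26 in monoculture (SD, n = 3 each), a difference of -0.70 (exact two-sided permutation p = 0.1, the smallest that 3 against 3 libraries can give). At 5 days the mean of -0.46 ± 0.43 differed from monoculture by -0.14 (exact permutation p = 0.7), and from the 3-day mean by 0.56 (exact permutation p = 0.2). No exact permutation test of 3 against 3 libraries can reach 0.05.

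**Figure D2:**
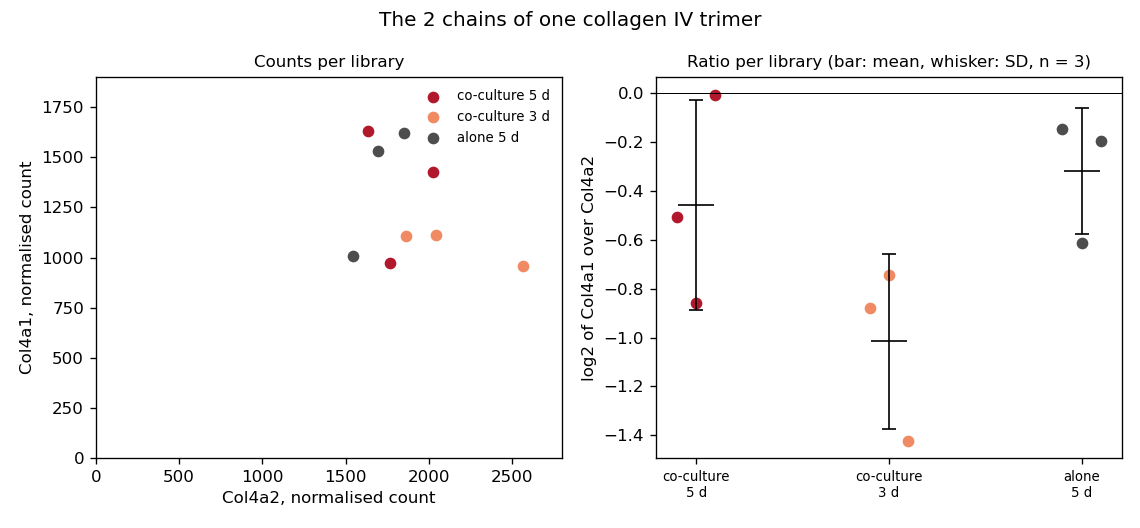
Left, normalised counts of Col4a1 against Col4a2 per library; right, the log2 ratio of Col4a1 to Col4a2 per library, with mean and SD (n = 3). The 3-day co-culture libraries, between -0.75 and -1.42, lie below the monoculture libraries, between -0.15 and -0.61.

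Laminins are cross-shaped trimers of an alpha, a beta and a gamma chain, and Lamb1 (chromosome 12, 31265234 to 31329644, plus strand) and Lamc1 (chromosome 1, 153218922 to 153332786, minus strand) encode the widely used β1 and γ1 chains. Lamb1 had 654.1, 696.7 and 950.1 after 5 days of co-culture, 642.7, 823.5 and 715.1 after 3 days, and 827.5, 511.9 and 638.9 in monoculture. All groups overlapped for Lamb1, and its 95% interval was -0.21 to 0.66 at 5 days and -0.27 to 0.60 at 3 days against monoculture on the log2 scale (limma adjusted p = 0.47 and adjusted p = 0.63). Lamc1 had 88.1, 135.1 and 114.9 after 5 days, 192.6, 142.0 and 199.0 after 3 days, and 124.4, 138.0 and 127.3 in monoculture. Every 3-day library was above every library of the other groups for Lamc1, but the log2 fold change of 0.44 ± 0.21 (SE) against monoculture did not pass (limma adjusted p = 0.15). Nor did the difference of -0.66 ± 0.21 between 5 and 3 days of co-culture (limma adjusted p = 0.065).

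Nidogens are rod-shaped glycoproteins that bridge laminin and collagen IV, and nidogen 1 binds the laminin γ1 chain. Nid1 (chromosome 13, 13437551 to 13512269, plus strand) had 249.8, 307.4 and 273.4 after 5 days of co-culture, 390.2, 263.8 and 282.4 after 3 days, and 337.9, 465.8 and 431.9 in monoculture. Every 5-day library lay below every monoculture library, and the 3-day libraries overlapped both. Nid1 fell at 5 days, to a mean of 276.9 ± 29.0 in co-culture against 411.9 ± 66.3 in monoculture (SD, n = 3). The log2 change was -0.56 ± 0.19 (SE, limma adjusted p = 0.044). That call was close to the threshold: with reads thinned to equal depth the adjusted p was 0.059. Leaving out 5-day co-culture replicate 1, 2 or 3, monoculture replicate 2 or 3, or 3-day co-culture replicate 2 also lost it, with limma adjusted p between 0.051 and 0.16. At 3 days the change was -0.41 (95% interval -0.82 to 0.00, limma adjusted p = 0.16).

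Nid2 (chromosome 14, 19751265 to 19811787, plus strand), which encodes the second nidogen, had 17.1, 17.7 and 28.7 after 5 days of co-culture, 48.2, 85.6 and 109.9 after 3 days, and 171.4, 136.0 and 184.5 in monoculture. No library of one group overlapped another group. The means were 21.2 ± 6.5 at 5 days, 81.2 ± 31.1 at 3 days and 164.0 ± 25.1 in monoculture (SD, n = 3), and the 5-day values rest on 19, 19 and 23 reads. Relative to monoculture the log2 change was -2.92 ± 0.29 at 5 days (SE, limma adjusted p = 2.0e-06) and -1.07 ± 0.29 at 3 days (adjusted p = 0.016), and between 5 and 3 days of co-culture it was -1.85 ± 0.29 (adjusted p = 0.0012). The 3-day call was lost without co-culture replicate 1 at 3 days (log2 -0.74, limma adjusted p = 0.067) and without monoculture replicate 3 (log2 -0.98, adjusted p = 0.067).

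The last 1000 bases of Nid2 overlap Rtraf, a protein-coding gene on the opposite strand, and the strand setting of the counting is not given in the sources used here. Rtraf, listed under its older symbol 2700060E02Rik, rose where Nid2 fell, with 271.3, 424.7 and 369.5 at 5 days, 235.8, 377.3 and 435.5 at 3 days, and 217.9, 214.4 and 198.0 in monoculture. Its log2 fold change was 0.73 at 5 days and 0.69 at 3 days against monoculture (limma adjusted p = 0.027 and adjusted p = 0.042), and 0.05 between 5 and 3 days (adjusted p = 0.93). Both Rtraf calls were lost without any of several single libraries: at 5 days 5-day co-culture replicate 2 or 3 or monoculture replicate 2 or 3, and at 3 days 3-day co-culture replicate 2 or 3, 5-day co-culture replicate 3 or any monoculture (limma adjusted p up to 0.12 and up to 0.16). The adipocyte markers and the fibroblast markers Pdgfra, Pdgfrb, Thy1 and Col3a1 were low in co-culture like Nid2. Pdgfra and Thy1 were also lower at 5 than at 3 days, but that Thy1 call was lost without replicate 1 or 2 of either co-culture (limma adjusted p up to 0.075). Of the other listed fibroblast markers, Dcn fell against monoculture only at 5 days, and Vim rose there (log2 1.07). Col1a1, Col1a2, Lum and Pdpn were not called. The part of these markers in the Nid1 and Nid2 values was not tested. Whether reads were assigned between these overlapping genes was not tested.

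Agrn (chromosome 4, 156165290 to 156197488, minus strand) encodes agrin, a heparan sulfate proteoglycan that binds laminin and dystroglycan and is best known for clustering acetylcholine receptors at the neuromuscular junction. It had 312.7, 322.3 and 313.4 after 5 days of co-culture, 232.5, 284.7 and 276.9 after 3 days, and 81.1, 69.7 and 77.8 in monoculture. The groups did not overlap, and the 5-day libraries lay close together. Relative to monoculture the log2 change was 2.04 ± 0.17 at 5 days (SE, limma adjusted p = 3.2e-07) and 1.78 ± 0.17 at 3 days (adjusted p = 2.4e-06), which is 4.12-fold and 3.43-fold on the log2(value + 1) scale. These calls held in every alternative run, with values between 1.72 and 2.09 when single libraries were left out. The luminal epithelial markers given above were also high in co-culture and low in monoculture, and their part in the Agrn values was not tested. Between 5 and 3 days the difference of 0.26 (95% interval -0.10 to 0.62) did not pass (limma adjusted p = 0.39).

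Hspg2 (chromosome 4, 137468769 to 137570630, plus strand) encodes perlecan, the large heparan sulfate proteoglycan of most basement membranes. It had 1009.0, 587.7 and 1264.7 after 5 days, 1205.6, 1198.7 and 518.9 after 3 days, and 1569.5, 1110.9 and 1350.4 in monoculture. One low library in each co-culture group, replicate 2 at 5 days and replicate 3 at 3 days, stood well below the rest. Relative to monoculture the log2 change was -0.55 at both times, with 95% intervals of -1.21 to 0.11, and passed at neither (limma adjusted p = 0.22 at 5 days and adjusted p = 0.23 at 3 days). Without co-culture replicate 3 at 3 days that value was -0.15, and without co-culture replicate 2 at 5 days it was -0.24.

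Collagens XV and XVIII carry glycosaminoglycan chains and many interruptions in their triple helix, and fragments of their C-terminal ends, endostatin in the case of collagen XVIII, restrain vessel growth. Col15a1 (chromosome 4, 47208161 to 47313167, plus strand) had 313.6, 340.0 and 393.3 after 5 days of co-culture, 147.8, 183.8 and 278.3 after 3 days, and 101.5, 57.2 and 145.9 in monoculture. No library of one group overlapped another, although the lowest 3-day library stood only just above the highest monoculture library. The epithelial markers were also higher in co-culture. Of the measured endothelial markers, only Esam was called higher, and with 3.1, 0 and 2.6 units in monoculture it passed the filter through co-culture libraries only. Egfl7 and Kdr were not called, and the log2 fold change of Kdr was -1.05 at 5 days and 0.23 at 3 days. The part of these markers in the Col15a1 values was not tested. Col15a1 rose by 1.86 ± 0.29 on the log2 scale at 5 days (SE, limma adjusted p = 0.00019) and by 1.04 ± 0.29 at 3 days (adjusted p = 0.018). The 3-day call was lost without co-culture replicate 3 at 3 days (log2 0.79, limma adjusted p = 0.081) and without monoculture replicate 2 (log2 0.69, adjusted p = 0.090). Between 5 and 3 days the difference of 0.82 ± 0.29 did not pass (limma adjusted p = 0.0999), but with only the co-culture groups fitted it did (limma adjusted p = 0.0353).

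Col18a1 (chromosome 10, 77052178 to 77166548, minus strand) had 65.6, 36.3 and 73.7 after 5 days, 76.4, 68.9 and 76.5 after 3 days, and 43.9, 40.4 and 58.5 in monoculture. All 3-day libraries were above all monoculture libraries, while 1 of the 5-day libraries was below them all. It passed in no comparison, with log2 fold changes of 0.25 at 5 days (95% interval -0.31 to 0.81, limma adjusted p = 0.55) and 0.64 at 3 days (0.08 to 1.20, adjusted p = 0.0997). The last 1000 bases of Col18a1 overlap Slc19a1 on the other strand, a gene with 19.6 to 36.6 units across all libraries, and those of Col4a1 overlap an annotated antisense RNA.

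**Figure D3:**
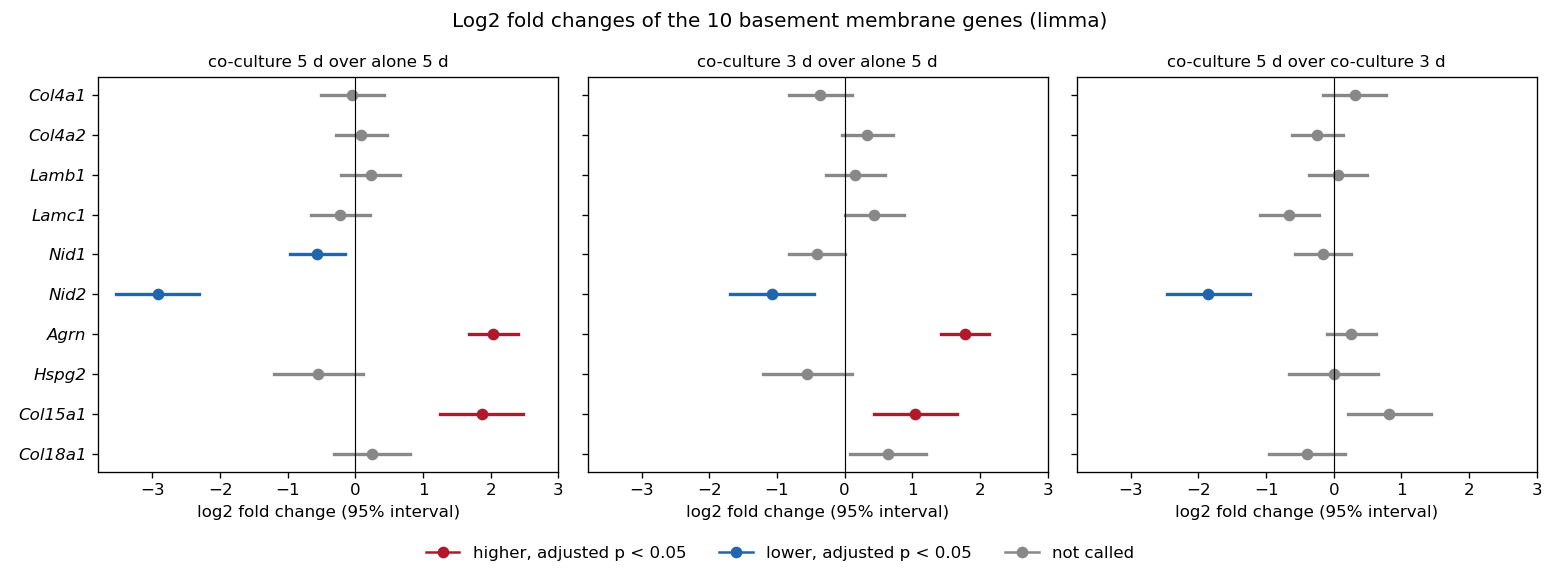
Log2 fold changes of the 10 genes with 95% intervals from limma, for 5 days of co-culture over monoculture, 3 days of co-culture over monoculture, and 5 over 3 days of co-culture; red and blue mark higher and lower calls and grey no call. Nid2, at -2.92, -1.07 and -1.85, is called in every panel, and Agrn, at 2.04 and 1.78, in the first and second.

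Libraries did not overlap between groups for 4 of the 10 genes at 5 days against monoculture (40.9% of all genes tested), 2 of them above (20.8%) and 2 below (20.1%). At 3 days against monoculture this held for 6 (37.4%), 5 above (19.2%) and 1 below (18.1%). At 5 against 3 days of co-culture it held for 4 (24.6%), 2 above (11.7%) and 2 below (12.9%). The median log2 fold change of the 10 was 0.02 at 5 days, 0.25 at 3 days and -0.08 between the co-cultures, beside medians over all genes tested of -0.01, 0.00 and -0.01. In absolute size the medians were 0.40, 0.49 and 0.29 for the 10 genes and 0.43, 0.41 and 0.33 for all genes.

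**Figure D4:**
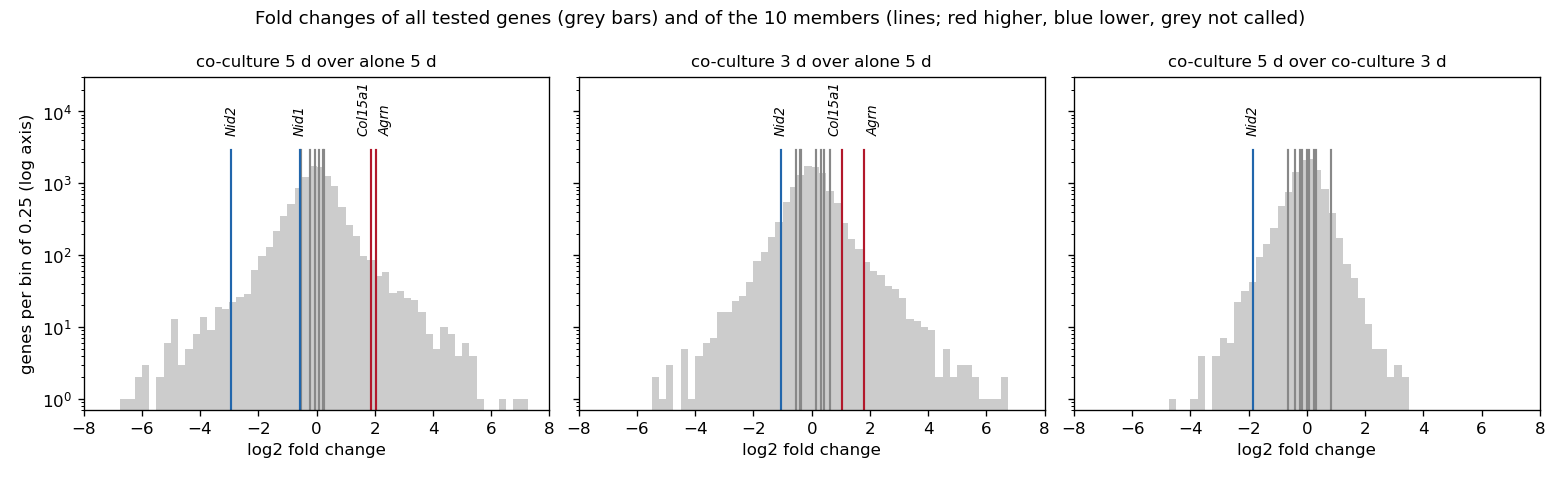
Number of genes in bins of log2 fold change (width 0.25, log axis) for all 10639 genes tested, with lines for the 10 basement membrane genes; red, blue and grey lines are higher, lower and not called. The uncalled members lie in the dense middle, while Nid2 at -2.92 and Agrn at 2.04 lie in the shoulders of the 5-day panel.

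Other genes of basement membranes were followed in lists that cover further components, receptors, collagen folding, heparan sulfate synthesis, and proteases with their inhibitors. Lama2, Lama3, Lama4, Pxdn, Itga6, Itgb4 and Dag1 are named here although their values were seen first. The shares to set beside the counts in each list are those of all genes tested: 12.6% higher and 11.4% lower at 5 days against monoculture, 10.6% and 9.37% at 3 days, and 3.20% and 3.71% at 5 against 3 days of co-culture, with medians of -0.01, 0.00 and -0.01. Of 21 tested further components, 6 rose and 5 fell at 5 days against monoculture (24.0% of all genes called), and 4 rose and 4 fell at 3 days (20.0%). The median log2 fold change of that list was -0.18 at 5 days and 0.07 at 3 days. Lama3 and Lamb3, which encode laminin chains of epithelial basement membranes, were among those that rose at both times. Lamb3 had 30.5, 32.6 and 42.4 after 5 days and 39.9, 16.0 and 30.6 after 3 days, beside 2 reads in the 3 monoculture libraries together. Both passed the filter on low values through co-culture libraries only, so they had to differ, and they were high where the epithelial markers were high. Without 3-day co-culture replicate 2 the 3-day call of Lama3 was lost (limma adjusted p = 0.074). Lama1, an alpha chain of embryonic and epithelial membranes, rose too (limma adjusted p = 4.6e-05 and adjusted p = 6.6e-05). It had 27.9, 33.5 and 22.5 after 5 days, 28.2, 32.7 and 23.7 after 3 days, and 3.1, 3.8 and 6.4 in monoculture. Only replicate 3 of the monocultures reached 5 units, so Lama1 could pass the filter only with co-culture libraries. The laminin alpha chains usual in mesenchyme did not pass: Lama2 had a log2 fold change of 0.24 at 5 days and 0.07 at 3 days, and Lama4 of -0.48 and -0.06 (limma adjusted p between 0.10 and 0.87).

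Among the further components that fell were Smoc2, a relative of the matricellular protein SPARC, and Fbln1, which encodes fibulin 1. Smoc2 had 2.7, 0.9 and 0.0 after 5 days, 8.3, 4.9 and 0.0 after 3 days, and 73.6, 160.1 and 111.8 in monoculture. It had 5 or more units in 1 of 6 co-culture libraries, so, like the called genes Egfl6 and Smoc1, it passed the filter through the monocultures and had to differ. Fbln1 had 1.8, 0.9 and 0.0 after 5 days, 10.0, 11.1 and 5.6 after 3 days, and 86.6, 39.9 and 32.8 in monoculture. It was the 1 gene of the 21 called between 5 and 3 days, where it fell (limma adjusted p = 0.0056, edgeR adjusted p = 0.030, DESeq2 adjusted p = 0.020). That call rests on 2, 1 and 0 reads at 5 days and 6, 16 and 4 reads at 3 days. Pxdn, which encodes the peroxidase that forms the sulfilimine crosslinks of collagen IV, rose at 5 days by 0.70 on the log2 scale (limma adjusted p = 0.019), with 312.1 to 363.9 in co-culture against 199.5 to 230.1 in monoculture. Its call was lost without 5-day co-culture replicate 1 or 2 or monoculture replicate 1 or 2 (limma adjusted p up to 0.063).

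Receptors of basement membranes went both ways: of 16 tested, 6 rose and 3 fell at 5 days (24.0% of all genes called), and 5 rose and 3 fell at 3 days (20.0%), with medians of 0.12 and -0.02 beside -0.01 and 0.00 for all genes. Itgb1, the beta subunit shared by most laminin and collagen receptors, had 3448.4, 3276.6 and 3408.2 after 5 days, 3583.6, 3505.0 and 2930.0 after 3 days, and 1377.1, 1523.3 and 1509.1 in monoculture. Its log2 fold change was 1.20 ± 0.17 at 5 days and 1.18 ± 0.17 at 3 days (SE, limma adjusted p = 6.1e-05 and adjusted p = 0.00010). Itga3, a laminin-binding alpha subunit, also rose, by 2.48 and 2.08, as did Itga6 and Itgb4, which pair in hemidesmosomes. Itga6 had 2.5, 2.4 and 11.6 units in monoculture, so it could pass the filter on low values only with co-culture libraries. Sdc4, a transmembrane heparan sulfate proteoglycan of focal adhesions, fell to 10.8, 9.3 and 18.7 at 5 days and 16.6, 39.0 and 25 at 3 days, against 86.0, 76.9 and 102.2 in monoculture, at log2 -2.73 and -1.75 (limma adjusted p = 1.4e-05 and adjusted p = 0.0013). Sdc1, another syndecan, was the 1 of 16 called between 5 and 3 days, higher by 0.69 (limma adjusted p = 0.024), and Sgce, which encodes a sarcoglycan of the dystroglycan complex, fell at both times. Dag1, the dystroglycan gene and a receptor for agrin, had 505.8, 624.0 and 531.8 after 5 days, 335.4, 423.2 and 441.0 after 3 days, and 642.4, 589.8 and 513.5 in monoculture, and fell at 3 days by 0.54 on the log2 scale (limma adjusted p = 0.037). Single libraries ended some of these calls: Dag1 without 3-day co-culture replicate 1 or 2 or monoculture replicate 1 or 2 (limma adjusted p up to 0.13), Itgb4 at 3 days without 3-day co-culture replicate 1 or monoculture replicate 3 (up to 0.061), and Sdc1 without replicate 1 or 2 of either co-culture (up to 0.096).

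For collagen folding and secretion, 3 of 19 tested genes rose and 6 fell at 5 days (24.0% of all genes called), and 1 rose and 2 fell at 3 days (20.0%), with medians of -0.04 and -0.26 beside -0.01 and 0.00 for all genes. Pxdn, among those that rose at 5 days, is also counted in the list of further components. Creb3l2, a transcription factor of the secretory pathway, rose at both times (1.40 and 1.02 on the log2 scale, limma adjusted p = 0.0010 and adjusted p = 0.012). Crtap, P3h3 and P3h4, of the prolyl 3-hydroxylase family and its partners, fell at 5 days, by 1.53, 0.90 and 0.66 on the log2 scale (limma adjusted p = 0.0021, 0.0025 and 0.0092). The lysyl hydroxylase gene Plod1 and the isomerase gene Ppib also fell at 5 days (log2 -0.79 and -0.61, limma adjusted p = 0.0097 and adjusted p = 0.026). Those calls were lost without monoculture replicate 2 (limma adjusted p = 0.051 for Plod1). That of Ppib was also lost without monoculture replicate 3 or 5-day co-culture replicate 1 or 2 (limma adjusted p up to 0.12). At 3 days Plod1 and Ppib fell as well (log2 -0.82 and -0.67). These 3-day calls were lost without monoculture replicate 2 (limma adjusted p = 0.052 and adjusted p = 0.082), that of Ppib also without 3-day co-culture replicate 3 (adjusted p = 0.077), and that of Creb3l2 without 3-day co-culture replicate 1 (adjusted p = 0.054). Between 5 and 3 days limma called 0 of the 19, with 6 at an unadjusted p under 0.05, 0 by edgeR and 1 by DESeq2, and Serpinh1, the collagen chaperone and the highest member, differed by 0.15.

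For heparan sulfate synthesis, of 17 tested genes 0 rose and 2 fell at 5 days by limma (24.0% of all genes called), and 1 rose and 2 fell at 3 days (20.0%), with medians of -0.16 and -0.27 beside -0.01 and 0.00 for all genes. At 5 days 6 of the 17 had an unadjusted p under 0.05, and edgeR and DESeq2 each called 2. Sulf1, a secreted sulfatase that edits the finished chains, fell at both times, with 140.2, 146.2 and 161.0 after 5 days, 139.5, 153.1 and 150.3 after 3 days, and 217.9, 226.9 and 190.2 in monoculture (limma adjusted p = 0.042 and adjusted p = 0.044). Its calls sit at the threshold: the 5-day call was lost in 6 and the 3-day call in 8 of the 9 fits that left out 1 library, with limma adjusted p up to 0.14 and up to 0.15. At 5 days the libraries were 5-day co-culture replicates 1 and 2, 3-day co-culture replicate 2 and any monoculture, and at 3 days all but 5-day co-culture replicate 3. Extl2, a glycosyltransferase gene, fell at 5 days (limma adjusted p = 0.031), a call lost without any of the 5-day co-culture libraries or without monoculture replicate 2 or 3 (adjusted p up to 0.12). Without monoculture replicate 2 or 3 the list held 0 calls at 5 days. The N-sulfating enzyme gene Ndst1 fell and the epimerase gene Glce rose at 3 days (limma adjusted p = 0.011 and adjusted p = 0.016), that of Glce not without monoculture replicate 1 (adjusted p = 0.068). Between 5 and 3 days limma called 0, with 4 at an unadjusted p under 0.05, 0 by edgeR and 1 by DESeq2, and Ext1, a chain polymerase and the highest member, differed by 0.60 (limma adjusted p = 0.13).

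Proteases that cut basement membrane proteins, and their inhibitors, were called in 10 of 16 cases at 5 days (6 higher, 4 lower; 24.0% of all genes called) and in 7 of 16 at 3 days (4 higher, 3 lower; 20.0%), with medians of 0.08 and -0.04 beside -0.01 and 0.00 for all genes. Mmp9, the gelatinase that degrades collagen IV, had 1274.9, 1397.1 and 1521.8 after 5 days, 3374.3, 4221.3 and 3801.0 after 3 days, and 44.6, 45.7 and 56.6 in monoculture, and at 5 days it was lower than at 3 days, at log2 -1.44 (limma adjusted p = 0.00015). Timp1, which encodes an inhibitor of that protease, rose at both times (log2 2.14 and 1.72, limma adjusted p = 2.5e-05 and adjusted p = 0.00029). Timp2, another inhibitor, fell at both times, with 3087.2, 3033.5 and 2829.0 after 5 days, 2260.1, 2430.2 and 2692.1 after 3 days, and 5168.5, 4331.4 and 4596.7 in monoculture (log2 -0.65 and -0.93, limma adjusted p = 0.010 and adjusted p = 0.00099). Adamts1, a secreted metalloprotease, and Mmp2, the other gelatinase, also fell at both times (log2 -1.51 and -1.05 for Adamts1, and -1.28 and -0.92 for Mmp2). Timp3, a matrix-bound inhibitor, had 6353.2, 8587.3 and 8395.7 after 5 days, 3299.6, 3209.8 and 4936.3 after 3 days, and 3176.2, 3642.1 and 3117.8 in monoculture, so its 5-day libraries lay above all others, and it was higher at 5 than at 3 days by 1.04 on the log2 scale (limma adjusted p = 0.0066). Between 5 and 3 days of co-culture 3 of the 16 were higher, Plat, Timp3 and Mmp10, and Mmp9 was lower. The Mmp10 call was lost without 3-day co-culture replicate 2 (limma adjusted p = 0.064).

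**Figure D5:**
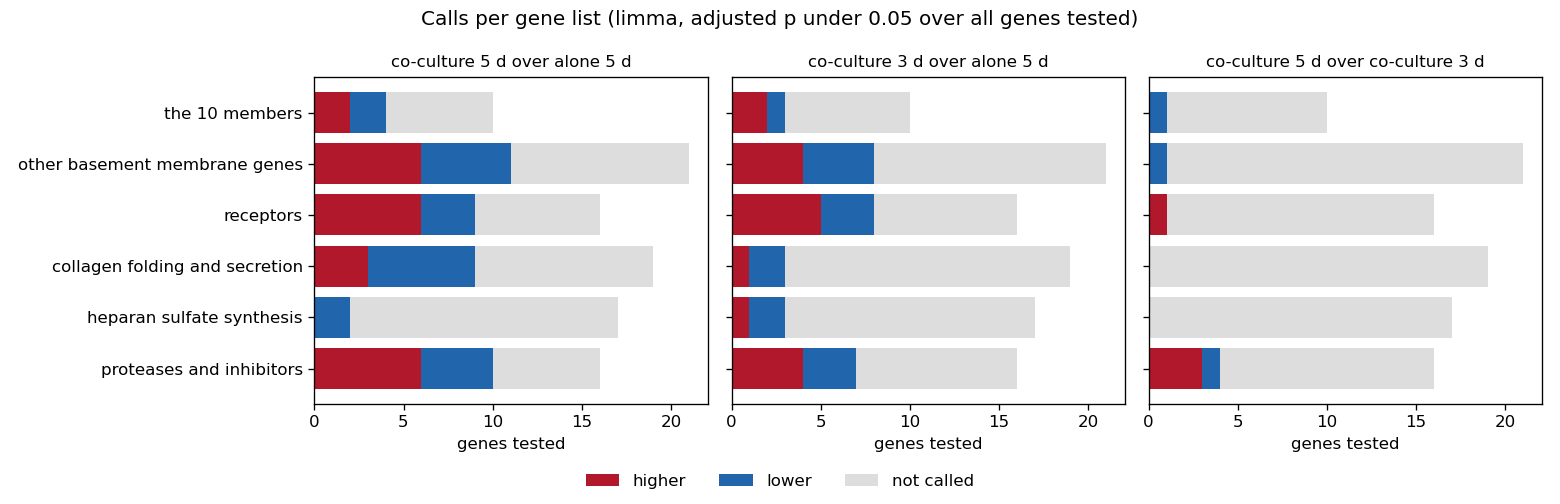
Number of genes called higher (red), lower (blue) or not called (grey) among the genes tested in each list, per comparison. Further components show 6 higher and 5 lower calls at 5 days, heparan sulfate synthesis 0 and 2, and between 5 and 3 days the lists hold between 0 and 4 calls.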

How the data were processed

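The authors deposited 1 table of normalised counts for the 9 libraries, a signal in which each library's values are whole multiples of what 1 read is worth. Per the submitters' processing notes, bcl2fastq, STAR 2.4.2a, HTSeq and the build mm10 were used. Dividing by that step returned whole reads, within a tolerance of 0.051, for 99.98% or more of the values in every library. The column of 5-day co-culture replicate 2 does not name carcinoma cells and was placed there because repetition 2 alone is another column. Of the gene names, 18 had been turned into dates.

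Values were tested as log2(value + 1) with limma 3.58.1 (R 4.3.3) over all 9 libraries, with Benjamini-Hochberg adjustment over 10639 genes that had at least 5 units in at least 3 of the 9 libraries, and 1292 genes were left out. Fold changes are on that scale and understate changes of low genes. edgeR 4.0.16 and DESeq2 1.42.0 on the recovered reads were alternatives, and the limma script was tested on simulated data. Reads carry no molecular identifiers, and depth limits low genes such as Nid2. Positions are from GENCODE M21 on mm10, and promoters from RefSeq GRCm38.p6, with no entry for Lamc1 and Nid2.

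The 10 genes and all lists were chosen with earlier results of these data known. Besides the 10, the genes named are, per list and comparison, the 4 called genes with the smallest adjusted p, or the highest gene where none was called. A result that this rule would name is not reported here. Further genes are said to be chosen after their values were seen, which also holds for Egfl6, Smoc1 and the cell type markers. It holds too for Adamts1, Mmp2, Timp2, Plod1 and Ppib where the rule did not take them. Thinning of reads to equal depth was chosen after seeing the data.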

Additional observations from a re-analysis of the deposited data

Results flagged for a closer look

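Nid2 differed in its change from monoculture between the times of co-culture. Its log2 fold change was -2.92 at 5 days and -1.07 at 3 days, a difference of -1.85 (limma adjusted p = 0.0012, 3 of 3 libraries at 5 days below 3 of 3 at 3 days). Both changes share the monoculture libraries, so this difference is the contrast of 5 with 3 days of co-culture.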

How the results depend on the processing

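Over all alternatives 3 to 4 of the 10 genes were called at 5 days against monoculture, 2 to 4 at 3 days, and 1 to 2 between 5 and 3 days. In the last comparison the count was 2 with only those groups fitted and 2 with the replicate block, and 1 to 2 when single libraries were left out. All genes called there numbered 735, but 1124 with array weights and 323 to 739 with single libraries left out; the cause was not tested. Among the 10 genes signs turned only for values that passed no test: Col4a1 at 5 days (-0.26 to 0.17 without single libraries), Lamb1 at 3 days (-0.0075 to 0.34), and between 5 and 3 days Hspg2 (0.0038 with median-of-ratios scaling, 1.5e-05 with pseudocount 0.5, 0.044 thinned, -0.40 to 0.31), Lamb1 (-0.073 with array weights, -0.076 with quantile scaling, -0.10 to 0.17) and Nid1 (-0.27 to 0.015). The Col4a1 to Col4a2 ratio difference at 5 days ranged from -0.36 to 0.063. Over all alternatives the calls for collagen folding ran from 5 to 10 at 5 days and 1 to 5 at 3 days against monoculture, and for heparan sulfate synthesis from 0 to 4 and 1 to 4. At 5 against 3 days they ran from 0 to 2 for each of these lists, 1 to 3 for further components and 0 to 2 for receptors.

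The correlations of deviations ran from -0.114 to 0.233 between same-numbered libraries and from -0.298 to 0.323 between differently numbered ones. For 5 days of co-culture and monoculture they ran from 0.0411 to 0.233 with the same number and from -0.19 to 0.0482 otherwise. These values cannot tell whether the numbers pair the libraries. With the replicate block Nid1 at 5 days lost its call (limma adjusted p = 0.053) and Col15a1 between 5 and 3 days passed (limma adjusted p = 0.0376).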
